A study of Mus musculus with 7 samples.

Results

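The genes described here store maternal mRNA in the oocyte or clear it after fertilisation: Btg4, Cnot6l, Cnot7, Zfp36l2, Tut4, Tut7, Ythdf2, Pabpn1l, Zar1 and Zar1l. These 10 genes were taken by name from 21887 protein-coding genes on chromosomes 1 to 19, X and Y, and all 10 were found on autosomes. The measurement was H3K4me1, a histone mark of enhancers and of active genes, read by CUT&Tag, in which an antibody directs the Tn5 transposase to marked chromatin so that sequenced fragments lie there. Each library came from 1 untreated mouse zygote.

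Zygotes were freed of cumulus cells and of the zona pellucida at 23 after human chorionic gonadotropin, with no unit stated in the labels. The females were superovulated with pregnant mare serum gonadotropin (5 IU), followed after 46 to 48 h by chorionic gonadotropin (5 IU). For the H3K27me3 zygotes of the same series the labels name the mothers as 6-week-old B6D2F1/J females and the fathers as C57BL6/J males of 3 to 6 months; for the H3K4me1 zygotes they name no strain. The H3K4me1 zygotes came from 2 mice, per the extract protocol, and were titled as batches; the deposited table pooled both, so the values describe 1 pool with no replicate and carry no p-value. The H3K27me3 and transcriptome samples were not analysed here.

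Library names hold a number, 4 or 5, and a cell number, and are written below as 5-6. The labels tie neither number to a mouse. Of 16 libraries, 14 passed a minimum of 5000 fragments over chromosomes 1 to 19, X and Y and were pooled, 3 of them named 4 and 11 named 5. Together they held 1404305 fragments, from 7106 to 197312 per library. The level of a gene is its fragments per bp, counted from 2.5 kb before to 2.5 kb after the annotated gene, divided by the autosomal mean of 5.62 fragments per 10 kb. Brackets hold exact Poisson 95% intervals, which cover counting error only. The oocyte genes Zp1, Zp2, Zp3, Gdf9, Bmp15, Figla and Nobox had a median level of 2.20, with 4 of 7 intervals above 1. The 8 cumulus and granulosa cell genes Has2, Ptx3, Tnfaip6, Amh, Inha, Foxl2, Fshr and Cyp19a1 had a median of 1.21. Of these, 3 lay above 1, Amh (2.63), Inha (2.15) and Cyp19a1 (1.44), and 1 below, Fshr (0.669). All autosomal protein-coding genes had a median of 1.21 as well, with 29.5% of intervals above 1 and 7.16% below. A level of a chromatin mark does not measure RNA, so these levels do not check the cell type. The part of other cells in these levels was not tested.

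A growing oocyte transcribes and stores mRNA, falls silent before it matures, and after fertilisation removes most of that mRNA while the embryo's own genome is switched on. Removal starts at the poly(A) tail: the CCR4-NOT complex shortens it, adaptors such as BTG4 bring the complex to mRNA, and terminal uridylyltransferases mark shortened tails for decay. Storage depends on RNA-binding proteins, among them the ZAR proteins, that hold mRNA untranslated in the oocyte cytoplasm.

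The start regions of 4 of these genes are shown. They belong to the highest gene by pooled level (Pabpn1l), the next highest (Tut7), the lowest (Cnot6l) and the next lowest (Btg4). They are RefSeq sequences of GRCm38.p6, 250 bases before to 50 after the outermost listed start, 5′ to 3′ on the strand of the gene. Pabpn1l is at chr8:122622686-122622985 on the minus strand, Btg4 at chr9:51115751-51116050 on the plus strand, Cnot6l at chr5:96161941-96162240 on the minus strand, and Tut7 at chr13:59823098-59823397 on the minus strand. Capitals mark matches, on either strand, to CANNTG (the E-box), to TATAAA (the TATA box), to the homeodomain motif as TAATTA or, with another last base, TAATTG, and to the CCAAT box.
Pabpn1l: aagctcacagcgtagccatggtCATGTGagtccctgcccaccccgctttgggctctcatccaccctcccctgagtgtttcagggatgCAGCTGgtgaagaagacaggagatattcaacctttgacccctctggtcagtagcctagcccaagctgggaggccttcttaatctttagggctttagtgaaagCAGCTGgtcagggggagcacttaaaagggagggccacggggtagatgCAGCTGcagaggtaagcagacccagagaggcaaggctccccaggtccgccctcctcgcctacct
Btg4: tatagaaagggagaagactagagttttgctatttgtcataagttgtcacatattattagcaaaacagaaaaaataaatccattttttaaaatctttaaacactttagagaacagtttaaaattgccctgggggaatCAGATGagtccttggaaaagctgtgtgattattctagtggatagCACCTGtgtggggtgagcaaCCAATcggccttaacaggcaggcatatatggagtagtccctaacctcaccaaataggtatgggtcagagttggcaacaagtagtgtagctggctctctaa
Cnot6l: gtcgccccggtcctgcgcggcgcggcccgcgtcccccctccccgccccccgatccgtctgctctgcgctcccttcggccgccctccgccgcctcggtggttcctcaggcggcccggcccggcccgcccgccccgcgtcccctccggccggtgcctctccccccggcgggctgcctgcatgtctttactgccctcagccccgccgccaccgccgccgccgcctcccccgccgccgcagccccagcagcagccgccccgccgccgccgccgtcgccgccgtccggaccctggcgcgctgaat
Tut7: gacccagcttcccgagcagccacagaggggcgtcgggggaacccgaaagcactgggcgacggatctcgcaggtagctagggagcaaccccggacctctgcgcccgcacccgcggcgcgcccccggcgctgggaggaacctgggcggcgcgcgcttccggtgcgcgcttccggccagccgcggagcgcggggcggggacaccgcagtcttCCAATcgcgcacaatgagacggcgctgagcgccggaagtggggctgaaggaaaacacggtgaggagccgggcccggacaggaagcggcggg

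The promoter table held 8 of the 10 genes, and Cnot7 and Zfp36l2 were not among them. The E-box CANNTG, to which helix-loop-helix factors such as the oocyte factor FIGLA bind, was found 4 times in Pabpn1l and 2 times each in Btg4, Zar1 and Zar1l. It was not found in the windows of Cnot6l, Tut4, Tut7 and Ythdf2. Of 17492 promoters of protein-coding genes, 68.8% hold this motif, so 4 of 8 is no high share. The genes with and without it also differed in base composition. Those with an E-box had 5 (Pabpn1l), 1 (Btg4), 17 (Zar1) and 3 (Zar1l) CG dinucleotides, and those without had 49 (Cnot6l), 28 (Tut4), 41 (Tut7) and 32 (Ythdf2), beside a median of 13 over all promoters. The part of base composition in the E-box matches was not tested. CCAAT was found in Btg4, Zar1l and Tut7 (39.2% of all promoters), TAATTG in Zar1l and Ythdf2 (7.04%), and TATAAA (13.3%) and TAATTA (4.69%) in none of the 8. No matches overlapped one another.

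H3K4me1 was not high over these genes as a group. Their median level was 0.876, beside 1.21 over 20665 autosomal protein-coding genes, and 8 of the 10 lay under that median. Summed over all 10 windows, 386 kb in all, there were 186 fragments where the autosomal mean gives 217, a level of 0.857 (0.738 to 0.989). The upper end of that interval reached 1.02 at most when 1 library was left out, and it no longer excluded 1 without library 4-2, 4-4, 4-5, 5-1, 5-4, 5-5 or 5-7. The intervals of 2 genes lay above 1, beside 29.5% of autosomal protein-coding genes, and the interval of 1 lay below 1, beside 7.16%. Both shares are near the background, and the other 7 intervals included 1. Since an interval is narrower where more fragments are expected, the shares also depend on size. Of the 3 genes with over 20 expected fragments (Tut4, Cnot6l and Tut7), 1 lay above 1 and 1 below, beside 39.8% and 12.2% of 7103 genes of that size. Of the 3 with 10 to 20 (Btg4, Cnot7 and Ythdf2), 0 lay above and 0 below, beside 33.1% and 6.34% of 4970. Of the 4 with under 10 (Zfp36l2, Pabpn1l, Zar1 and Zar1l), 1 lay above and 0 below, beside 18.9% and 3.50% of 8592. In libraries named 4 the summed level was 0.594 (0.377 to 0.892) from 23 fragments, and in libraries named 5 it was 0.914 (0.779 to 1.07) from 163.

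The order of levels ran from Pabpn1l (3.23) and Tut7 (1.55) over Zar1l (1.10), Zar1 (0.962), Ythdf2 (0.935), Cnot7 (0.817), Zfp36l2 (0.789), Tut4 (0.779) and Btg4 (0.547) to Cnot6l (0.360). Intervals of neighbours in this order overlapped in all cases. From Zar1l to Btg4 all intervals included 1, so the order among these 7 genes is not resolved at this depth. All 10 genes had at least 4 fragments, and 61.8% of the fragments lay in the 3 longest genes, Tut4, Cnot6l and Tut7. Windows were taken at full length, including any bases where no read can be placed, and the part of such bases in a low level was not tested.

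**Figure D1:**
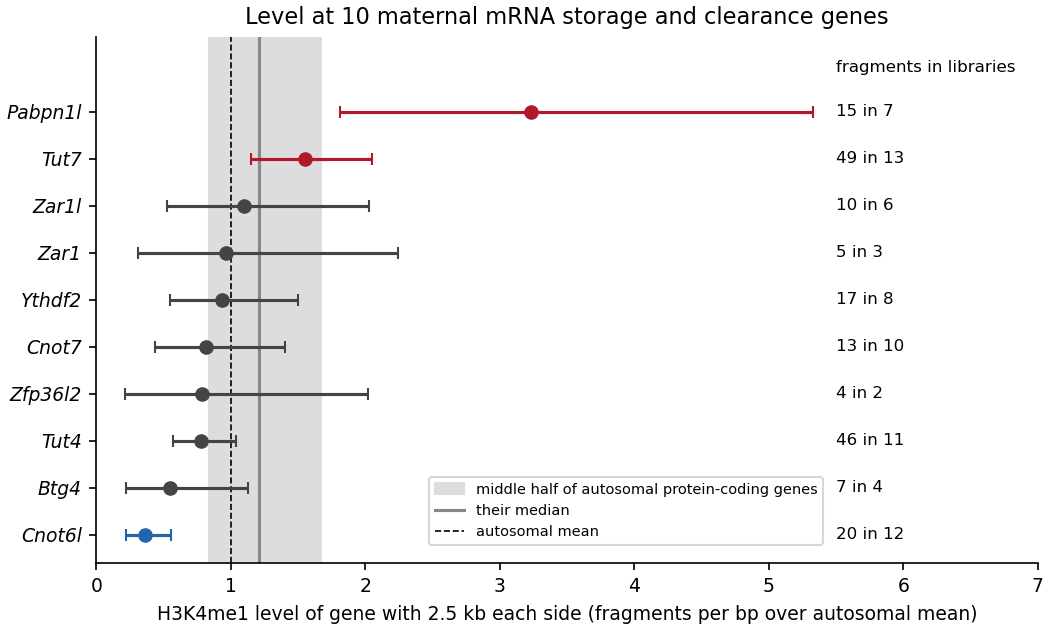
H3K4me1 level of each gene with 2.5 kb on each side, in fragments per bp over the autosomal mean, with exact 95% intervals as bars and the number of fragments and of libraries at the right. Red marks intervals above 1 (Pabpn1l, Tut7), blue an interval below 1 (Cnot6l), and the grey band spans the quartiles of autosomal protein-coding genes, 0.835 to 1.67.

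Cnot6l had the lowest pooled level of the 10 genes and was also low beside its paralog and its surroundings. With libraries weighted equally instead of by depth, its level was 0.587, and Btg4 was then the lowest with 0.423. That weighting counts the shallowest library, 5-11, as much as any other. Library 5-11 had a level of 3.59 at Cnot6l from 1 fragment, where the mean gives 0.279. Equal weighting without library 5-11 was not computed. Over the other 13 libraries the median level was 0.324 at Cnot6l, with a highest of 0.757. At Btg4 it was 0, with a highest of 2.06. These medians do not give the order of the means. Cnot6l (chr5:96070333-96164198, 93.9 kb) encodes a deadenylase subunit of CCR4-NOT that trims poly(A) tails and acts on maternal mRNA in mouse oocytes and zygotes. It had 20 fragments in 12 libraries where the autosomal mean gives 55.6, a level of 0.360 (0.220 to 0.556), higher than that of 7.50% of autosomal protein-coding genes. Libraries 4-2, 4-4 and 4-5 had 2, 1 and 0 fragments there, libraries 5-1 to 5-6 had 1, 2, 1, 3, 0 and 4, and libraries 5-7 to 5-11 had 2, 1, 1, 1 and 1. In all 13 libraries above 20000 fragments the level of Cnot6l lay below 1, from 0 to 0.757. Its interval stayed below 1 whichever of the 14 libraries was left out. At no base of its window did 1 library have more than 1 fragment. The predicted gene Gm52799 lies inside Cnot6l over 2152 bp, with 1 of the 20 fragments, and had a level of 0.249 (0.00630 to 1.39).

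Along Cnot6l all 10 steps of 10 kb lay below the mean, from 0 to 0.712, and the intervals of 3 steps lay below 1. The longest stretch of the gene with no fragment ran over 19.6 kb (chr5:96107243-96126805), where the mean gives 11.0 fragments. The 1 Mb on each side of Cnot6l was itself low, with a level of 0.675, and Cnot6l lay at 0.533 times that level (0.324 to 0.829). Gene density there was low as well, with 7 other protein-coding genes within 500 kb, beside a median of 16.0 for autosomal protein-coding genes. This count and the level of the surroundings were 6 and 1.31 at Zfp36l2, and 8 and 1.14 at Zar1l. They were 9 and 0.949 at Zar1, 10 and 1.33 at Tut7, and 11 and 0.808 at Cnot7. They were 16 and 1.27 at Tut4, 18 and 1.16 at Btg4, 18 and 1.43 at Ythdf2, and 22 and 1.59 at Pabpn1l. The part of gene density in these levels was not tested.

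Cnot6, the paralogous deadenylase of the same complex, had 29 fragments and a level of 1.10 (0.737 to 1.58). Cnot6l thus lay at 0.327 times the level of Cnot6 (0.175 to 0.599, exact conditional interval), and it was the lower one in 12 of 13 libraries above 20000 fragments. Set against their own surroundings, the ratio was 0.676 (0.363 to 1.24), which no longer excludes 1.

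Cnot7 (chr8:40492538-40515847), the other kind of deadenylase subunit of CCR4-NOT, had 13 fragments in 10 libraries and a level of 0.817 (0.435 to 1.40). Its surroundings had a level of 0.808, and Cnot7 lay at 1.01 times that (0.536 to 1.74). The gene Vps37a, with a level of 0.802 (0.490 to 1.24), shares 6606 bp of its window, and 4 of the 13 fragments lie there. The paralog Cnot8 had a level of 1.56 (1.03 to 2.27), and Cnot7 lay at 0.524 times that level with an interval that includes 1 (0.248 to 1.05).

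Btg4 (chr9:51102147-51119924), the oocyte adaptor that brings CCR4-NOT to maternal mRNA, had 7 fragments in 4 libraries, all of them named 5, where the mean gives 12.8. Library 5-6 had 3, library 5-2 had 2 and libraries 5-3 and 5-7 had 1 each, and the other 10 libraries had none. All 7 lay inside the gene and none in the flanks, and the first 9.26 kb of the annotated gene (chr9:51102147-51111405), which hold the microRNA genes Mir34b and Mir34c, had none where the mean gives 5.20. The start in the promoter table lies inside the annotated gene, beyond that stretch. The gene Hoatz, with a level of 0.603 (0.289 to 1.11), shares 6188 bp of the window, and no fragment lay there. The 5 kb around the listed start had 2 fragments. The level was 0.547 (0.220 to 1.13). Left out one at a time, libraries 5-6 and 5-2 gave 0.355 (0.0968 to 0.910) and 0.423 (0.137 to 0.986), both with intervals below 1. Btg4 lay at 0.473 times its surroundings (0.190 to 0.978), an interval that included 1 without any 1 of 9 libraries, 4-2, 4-4, 4-5, 5-1, 5-4, 5-5, 5-8, 5-9 and 5-10.

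Relatives of Btg4 that act in somatic cells had levels near or below the mean. Btg1 had a level of 0.987 (0.362 to 2.15), Btg2 had 1.15 from 6 fragments, Btg3 had 1.12 (0.610 to 1.87) and Tob2 had 1.06 (0.486 to 2.02). Btg4 lay at 0.554 (0.159 to 1.99), 0.476 (0.137 to 1.71), 0.490 (0.167 to 1.30) and 0.514 (0.163 to 1.55) times these levels. Tob1 had 2 fragments and a level of 0.334 (0.0404 to 1.21), and Btg4 lay at 1.64 times that (0.312 to 16.2). None of these 5 intervals excludes 1.

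Zfp36l2 (chr17:84183924-84187947) encodes a zinc finger protein that binds AU-rich elements and recruits CCR4-NOT to mRNA. It had 4 fragments, 3 in library 5-6 and 1 in library 5-1, and a level of 0.789 (0.215 to 2.02). None of them lay in the gene itself, where the mean gives 2.26 and 3 fragments would be a level of 1.33. The interval there ran from 0 to 1.63. All 4 lay in the 2.5 kb flank at higher coordinates, on the annotated lncRNA Gm36279. The gene Thada, with a level of 1.39 (1.21 to 1.58), shares 392 bp of the window and none of the 4. Without library 5-6 the level rested on 1 fragment and was 0.224. The surroundings of Zfp36l2 were high close by, with a level of 1.89 (1.41 to 2.47) in the next 25 kb on both sides and 1.68 (1.42 to 1.99) from 25 to 100 kb. Its paralogs Zfp36 and Zfp36l1 had 1.43 (0.526 to 3.12) and 1.39 (0.599 to 2.74). Zfp36l2 lay at 0.550 times the level of Zfp36 (0.114 to 2.32) and 0.568 times that of Zfp36l1 (0.125 to 2.12), with intervals that include 1.

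The uridylyltransferase genes Tut4 and Tut7 differed in level. Their enzymes add uridines to shortened poly(A) tails and act together on mRNA of the growing mouse oocyte. Tut4 (chr4:108459410-108559415, 100 kb) had 46 fragments where the mean gives 59.0, and Tut7 (chr13:59771876-59823169, 51.3 kb) had 49 where it gives 31.6. In libraries 4-2, 4-4 and 4-5 Tut4 had 1, 3 and 5 fragments and Tut7 had 2, 2 and 3. In libraries 5-1 to 5-6 Tut4 had 0, 3, 0, 4, 4 and 11 and Tut7 had 2, 6, 6, 6, 4 and 3. In libraries 5-7 to 5-11 Tut4 had 5, 1, 1, 8 and 0 and Tut7 had 4, 3, 0, 6 and 2. Tut7 had at most 6 fragments in a library, whereas libraries 5-6 and 5-10 held 11 and 8 of the 46 fragments of Tut4.

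Tut4 had a level of 0.779 (0.571 to 1.04) and Tut7 had 1.55 (1.15 to 2.05), so that Tut4 lay at 0.503 times the level of Tut7 (0.329 to 0.768). Tut4 was the lower one in 11 of 13 libraries above 20000 fragments, and the interval of the ratio excluded 1 whichever library was left out, with ratios from 0.408 to 0.574. Libraries 5-6 and 5-9 were the exceptions. In libraries named 4 alone the ratio was 0.689 (0.228 to 2.18). Without library 5-6 the level of Tut4 was 0.674 (0.470 to 0.938), and without library 5-10 it was 0.715 (0.506 to 0.982), both with intervals below 1.

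Along Tut7 all 6 steps of 10 kb lay above the mean, from 1.13 to 1.78, with no step whose own interval excludes 1. Along Tut4, 8 of 11 steps lay below the mean and 3 above it, from 0.356 to 1.42, and again no interval excludes 1. Neither gene thus showed a single peak at this depth. The 5 kb around the outermost start of Tut4 had 0 fragments, with an interval of 0 to 1.31, and 3 fragments would be a level of 1.07. Of 16457 start windows of autosomal protein-coding genes, 10.8% likewise had none. The gene Isca1, with a level of 1.29 (0.703 to 2.16), shares 414 bp with the window of Tut7 and none of its fragments. Over 1 Mb on each side the surroundings of the pair had similar levels, 1.27 at Tut4 and 1.33 at Tut7. The next 25 kb on both sides were lower, with 0.818 (0.519 to 1.23) at Tut4 and 0.854 (0.547 to 1.27) at Tut7. Ratios to the surroundings were taken over the 1 Mb. Tut4 lay at 0.614 times its surroundings (0.447 to 0.823), and Tut7 at 1.17 times its own (0.858 to 1.55).

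**Figure D2:**
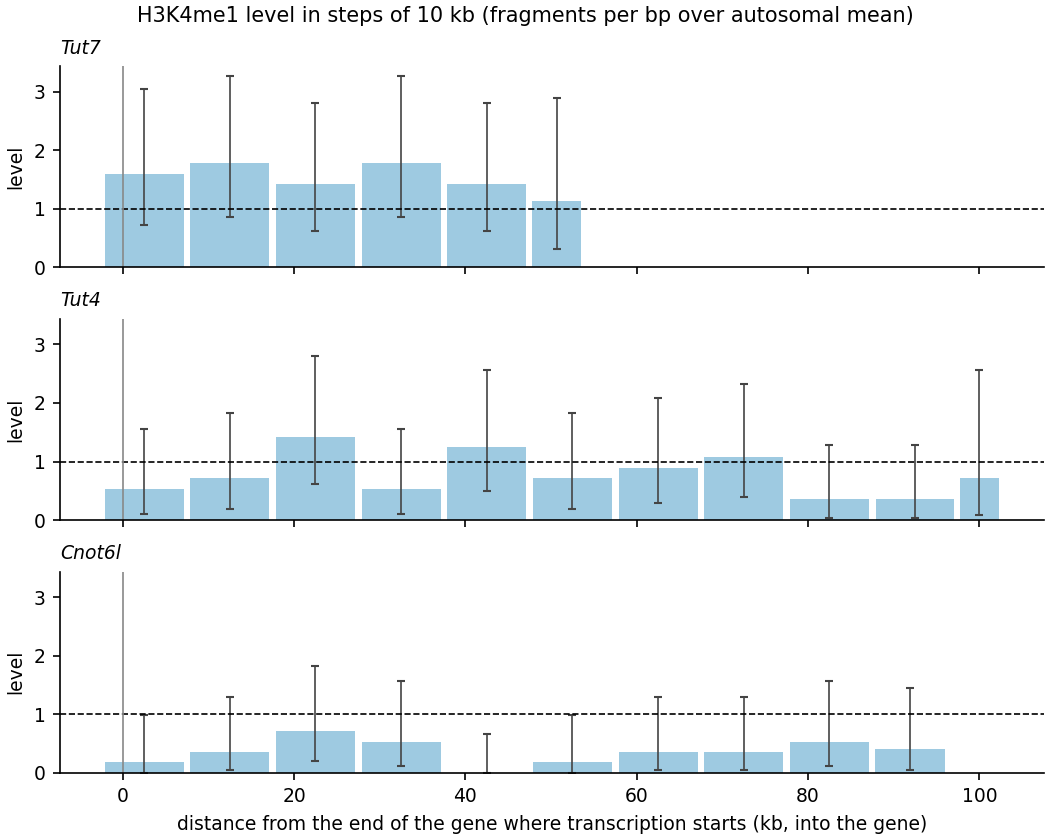
H3K4me1 level in steps of 10 kb along Tut7, Tut4 and Cnot6l, against the distance in kb from the end of the annotated gene where transcription starts (grey line), with exact 95% intervals; the last step is shorter, and the dashed line is the autosomal mean. The 6 steps of Tut7 lie above the mean, 8 of the 11 of Tut4 lie below it, and the 10 of Cnot6l lie below it.

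Ythdf2 (chr4:132184916-132212256) encodes a reader of the mRNA modification m6A that leads modified mRNA to decay and is needed in the mouse oocyte. It had 17 fragments in 8 libraries and a level of 0.935 (0.545 to 1.50). Libraries 5-4 and 5-7 held 5 and 4 of them, and of the libraries named 4 only 4-2 had 1. Ythdf2 lay at 0.656 times its surroundings (0.381 to 1.05), which had a level of 1.43. Its paralogs Ythdf1 and Ythdf3 had 1.16 (0.632 to 1.94) and 0.869 (0.523 to 1.36), so that Ythdf2 lay at 0.809 (0.376 to 1.77) and 1.08 (0.525 to 2.19) times their levels, with intervals that include 1.

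Pabpn1l had the highest level of the 10 genes. Pabpn1l (chr8:122619471-122622735, 3.27 kb) encodes an embryonic poly(A)-binding protein that acts with BTG4 in the removal of maternal mRNA in the mouse. It had 15 fragments in 7 libraries where the mean gives 4.65, a level of 3.23 (1.81 to 5.33), which ranked 219 of 20665 autosomal protein-coding genes. The rank is over genes of all sizes, and levels of small genes spread more. Quartiles were 0.617 and 1.76 with under 10 expected fragments, beside 0.921 and 1.52 with over 20. A rank among genes of like size was not taken. Library 5-6 had 4 of the 15 fragments, 5-8 had 3, libraries 5-5, 5-7 and 5-10 had 2 each, and 5-3 and 5-4 had 1 each. The 3 libraries named 4 had 0, where the mean gives 0.828, a level of 0 (0 to 4.46), and 3 fragments would be a level of 3.62 there. At most 3 fragments of 1 library lay over the same base. The interval stayed above 1 whichever library was left out, and without 5-6 the level was 2.69.

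The fragments of Pabpn1l were spread over its window. The gene itself had 6 fragments and a level of 3.27 (1.20 to 7.12), the 2.5 kb before it had 4 and 2.85 (0.776 to 7.29), and the 2.5 kb after it had 5 and 3.56 (1.16 to 8.30). The 5 kb around its start, which include the promoter sequence printed above, had 9 fragments and a level of 3.20 (1.46 to 6.08), a count reached in 3.49% of all start windows. Pabpn1l lies in a gene-dense stretch, with 22 other protein-coding genes within 500 kb, and its surroundings had a level of 1.59, the highest around the 10 genes. In the next 25 kb on both sides the level was 1.53 (1.11 to 2.06), and from 25 to 100 kb away it was 2.17 (1.87 to 2.51). From 100 to 500 kb it was 1.53 (1.41 to 1.64), and from 500 to 1000 kb 1.56 (1.46 to 1.67). Pabpn1l lay at 2.03 times its surroundings (1.13 to 3.36), but without library 5-5, 5-6 or 5-8 the interval of this ratio included 1, at 1.85 (0.982 to 3.17), 1.75 (0.874 to 3.15) and 1.73 (0.892 to 3.03). The neighbouring gene Cbfa2t3, which overlaps 100 bp of the window and shares none of its fragments, had a level of 2.00 (1.61 to 2.46). Pabpn1, the broadly expressed paralog, had 11 fragments and a level of 2.00 (0.998 to 3.58). Pabpn1l lay at 1.61 times that level (0.693 to 3.89), which does not exclude 1.

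Zar1 and Zar1l, whose proteins bind mRNA in the oocyte and are needed for its storage in the mouse, both lay near the autosomal mean. Zar1 (chr5:72577113-72581361) had 5 fragments, 2 each in 5-6 and 5-10 and 1 in 5-9, and a level of 0.962 (0.312 to 2.24). Zar1l (chr5:150507055-150518194) had 10 fragments in 6 libraries, 3 of them in 5-10, and a level of 1.10 (0.529 to 2.03). Zar1 thus lay at 0.873 times the level of Zar1l (0.234 to 2.80). Against their surroundings they lay at 1.01 (0.328 to 2.37) and 0.964 (0.461 to 1.78) times the levels there, with intervals that include 1. In the window of Zar1, 2 of the 5 fragments lay on the transcribed pseudogene Slc10a4l.

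**Figure D3:**
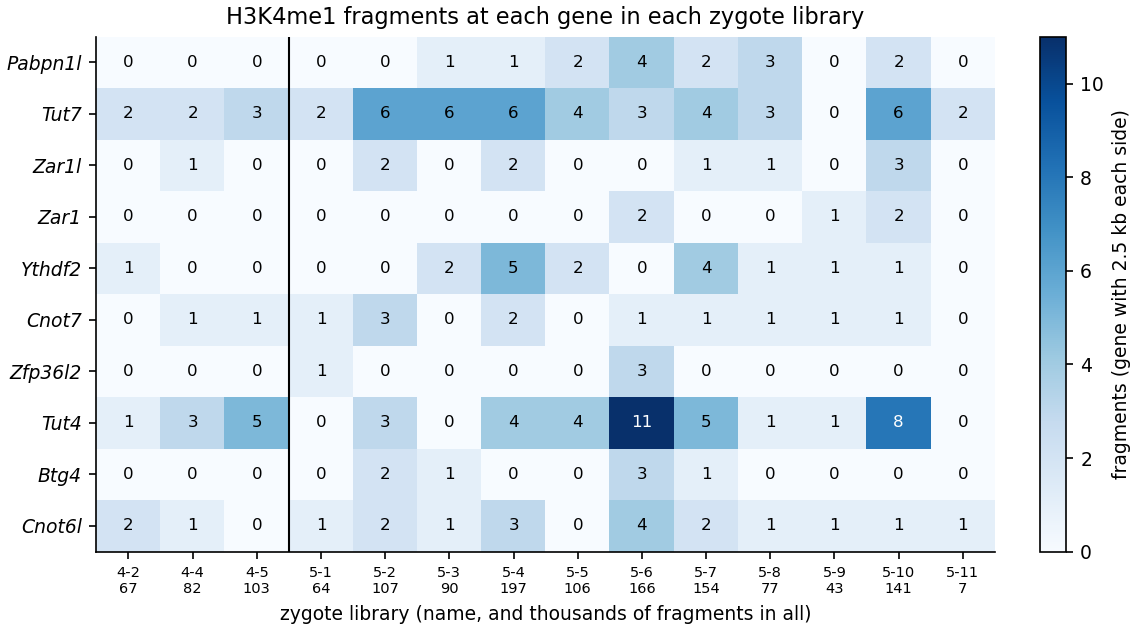
Number of H3K4me1 fragments at each gene with 2.5 kb on each side (rows, by level) in each of the 14 zygote libraries (columns, with their total depth); the vertical line parts libraries named 4 and named 5. Tut7 has fragments in 13 libraries, while Zfp36l2 has them in 2 and Zar1 in 3.

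Over all 10 genes, counts per library were low, so that single zygotes could rarely be told apart. Library 5-6 had fragments at 8 genes, as had 5-7 and 5-10, and library 5-11, the shallowest, at 2. Summed over the genes, the level ran from 0.516 (0.168 to 1.20) in library 5-1 to 1.18 (0.805 to 1.68) in library 5-6 among those above 20000 fragments, and all 13 intervals included 1. Fragments at these genes had a median length of 315 bp, beside 322 bp in the whole pool, and 96.2% (92.4% to 98.5%, exact binomial) were 150 bp or longer, beside 91.6% in the pool. The pool includes sequence between genes, and the share over windows of all protein-coding genes was not measured. Between libraries named 4 and named 5 no gene had intervals that lay apart. Intervals in libraries named 4 were wide, and at Pabpn1l 0 fragments still gave an upper end of 4.46. The overlap therefore does not show that the sets are alike.

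Set against their surroundings, 4 of the 10 genes were higher and 6 lower, with a median ratio of 0.810. The interval of the ratio lay above 1 for Pabpn1l and below 1 for Cnot6l, Btg4 and Tut4. Of 20561 autosomal protein-coding genes with fragments in their surroundings, 15.4% had such an interval above 1 and 7.48% below, and their median ratio was 1.03. The surroundings had a median level of 1.21. The median of autosomal protein-coding genes is the same number, but of gene windows. A median over the surroundings of all genes was not taken. The 10 genes had a median of 10.5 other protein-coding genes within 500 kb, beside 16.0 for autosomal protein-coding genes. Of 14 pairs of a gene and its paralog, the interval excluded 1 in 2, Cnot6l with Cnot6 and Tut4 with Tut7. How often such an interval excludes 1 for other pairs of genes was not measured.

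**Figure D4:**
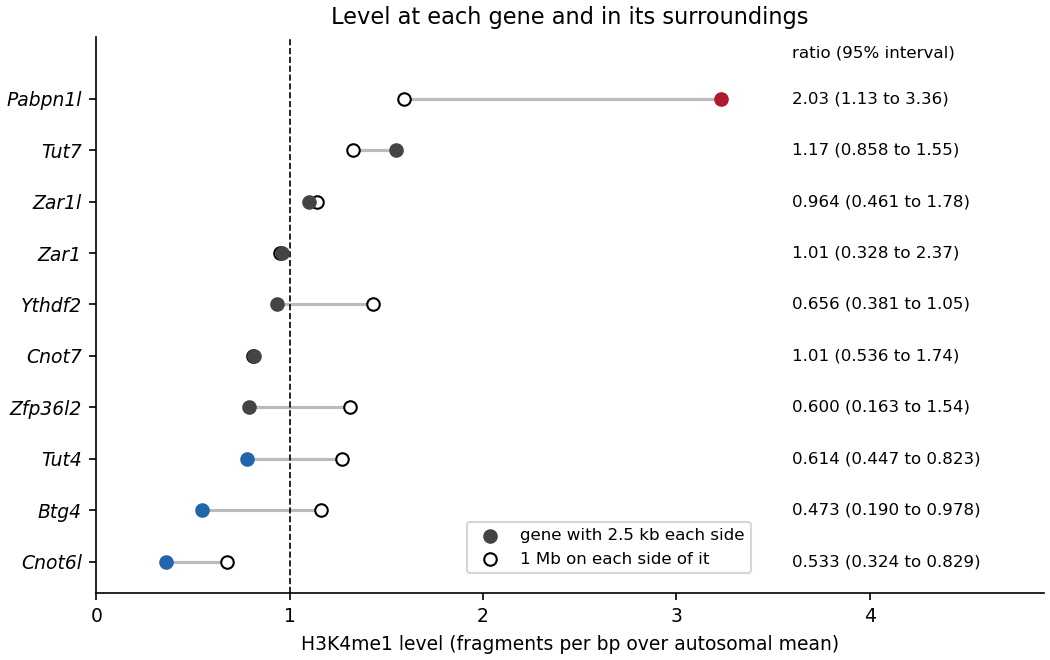
H3K4me1 level of each gene with 2.5 kb on each side (filled) and of the 1 Mb on each side of it (open), in fragments per bp over the autosomal mean, with their ratio and its exact 95% interval at the right; red and blue mark ratios whose interval lies above or below 1. Pabpn1l lies at 2.03 times its surroundings, and Tut4, Btg4 and Cnot6l lie at 0.614, 0.473 and 0.533 times theirs.

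The other genes of these pathways, 65 in all and chosen for their known roles, had a median level of 1.25, with 20 intervals above 1 (30.8%) and 4 below (6.15%), beside 29.5% and 7.16% of autosomal protein-coding genes. Among 14 further CCR4-NOT subunits and BTG/TOB adaptors the median was 1.13, with 4 above and 1 below. Cnot3, a regulatory subunit, had the highest level of this list, 2.39 (1.59 to 3.45), and Tob1 the lowest. Poly(A) tail enzymes and tail-binding proteins had the highest median, 1.40 over 14 genes, with 7 above and 0 below. Pabpc1l, the poly(A)-binding protein of oocytes, led them with 2.60 (1.90 to 3.48) from 45 fragments, and Tent2, a cytoplasmic poly(A) polymerase, was lowest with 0.828 (0.530 to 1.23).

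Proteins that bind AU-rich or Pumilio elements had a median of 1.39 over 7 genes, with 3 above and 0 below, from Khsrp, a decay factor, with 1.96 (1.14 to 3.13), to Pum2, a translational repressor, with 0.767 (0.537 to 1.06). Writers, erasers and readers of m6A had 1.16 over 11 genes, with 2 above and 1 below. The demethylase gene Alkbh5 led them with 2.20 (1.51 to 3.11), and the methyltransferase subunit gene Mettl14 was lowest with 0.627 (0.271 to 1.24). Genes of oocyte mRNA storage and masking had 1.15 over 10 genes, with 2 above and 2 below. In this list Eif4e1b, an oocyte cap-binding protein, had 3.01 (1.72 to 4.88) from 16 fragments, and Dazl, an RNA-binding protein of germ cells, had 0.278 (0.0572 to 0.811) from 3 fragments. Decapping and decay genes had 1.32 over 9 genes, with 2 above and 0 below, from Edc4, a decapping scaffold, with 2.46 (1.58 to 3.66), to Edc3 with 0.916 (0.587 to 1.36). The median of the 10 storage and clearance genes, 0.876, was thus lower than the median of each of these 6 lists, a description with no test.

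**Figure D5:**
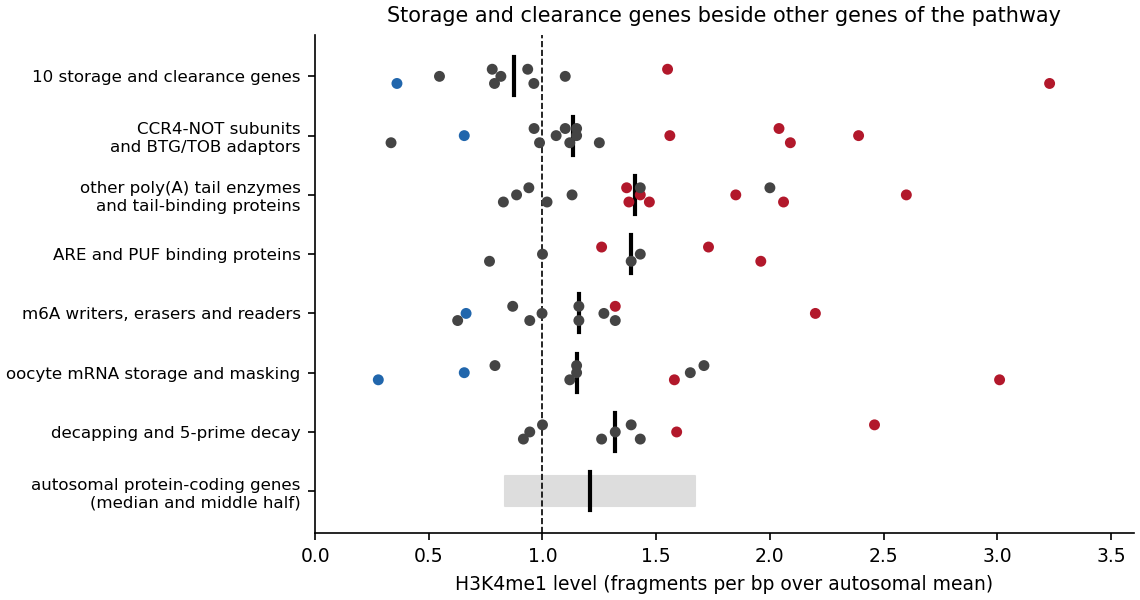
H3K4me1 level of each gene (points), in fragments per bp over the autosomal mean, for the 10 storage and clearance genes and 6 lists of other genes of the pathway, with list medians as black bars, and below them the median and quartiles of autosomal protein-coding genes. Red marks intervals above 1 and blue intervals below 1; the 10 genes have a median of 0.876 and the lists have medians from 1.13 to 1.40.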

How the data were processed

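The authors deposited 1 table of H3K4me1 fragments with both batches together, 1 line per fragment, and a count of 1 in each of its 1424363 lines; counts per gene were made here by counting lines. The genome build is mm10, per the submitters' processing notes. Not given in the sources used here were the aligner, the removal of duplicates, the filters and any shift of cut sites; 5 lines repeated another of the same library. Genes and promoter sequences are those of RefSeq on GRCm38.p6, which has the coordinates of mm10. A fragment was placed by its midpoint. Chromosome lengths ran from the first to the last fragment. Ratios carry exact conditional binomial intervals, treating fragments as independent, which amplified reads need not be. Where a region had 0 fragments, the level that 3 fragments would give is a limit of depth, and the exact interval reaches higher. Intervals were tested on simulated Poisson counts of known level, which checks their computation only. Amplified reads and spread between libraries were not simulated. No test between samples was possible.

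The genes, lists and rules were chosen with earlier results of these data known. Named are all 10 genes, their paralogs, the highest and lowest gene of each list, and other protein-coding genes that overlap a window. Gm36279, Slc10a4l, Mir34b, Mir34c, CG counts, distances around genes and the alternatives for ratios were chosen after their values were seen. Python 3.11.15, numpy 2.4.6, pandas 2.3.3, scipy 1.17.1 and matplotlib 3.10.9 were used.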

Additional observations from a re-analysis of the deposited data

How the results depend on the processing

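No paired analysis was possible because the table pools both batches and library names hold no batch number. In the 3 libraries named 4 the median of the 10 genes was 0.306 and the summed level 0.594. In them 0 intervals lay above 1, beside 13.2% of autosomal protein-coding genes. Pabpn1l had a level of 0 and a ratio to its surroundings of 0 there, as had Btg4. The median of AU-rich and Pumilio element binding proteins was 0.717 in these libraries. Only 7 fragments at these genes were under 150 bp. They gave a median of 0.328 and a summed level of 0.384. With them 0 intervals lay above 1 and 2 below, beside 8.98% and 1.39% of autosomal protein-coding genes. Tut7 had a level of 0.753, and the ratios of Cnot6l over Cnot6 and of Tut4 over Tut7 were 0. The median of the element binding proteins was 0.438 with such fragments. With the 1 Mb on each side as reference, 1 interval lay above 1 and 3 below, beside 15.6% and 7.67% of autosomal protein-coding genes when the surroundings are taken as exact, and Cnot6l over Cnot6 was 0.676. With all protein-coding genes as reference, the summed level was 0.729, with 1 interval above and 3 below, beside 19.4% and 13.5%. With 5 kb on each side 2 intervals lay below 1, Btg4 being added, beside 9.15%. The genes with at least 10 expected fragments (Tut4, Cnot6l, Tut7, Btg4, Cnot7 and Ythdf2) alone gave 1 interval above 1 and 1 below. The shares were 33.1% and 6.34% of genes with 10 to 20 expected fragments, and 39.8% and 12.2% with over 20. All of them but Tut7, 5 genes, lay under the median of all genes. With libraries weighted equally, the shallowest library 5-11, with 7106 fragments, counted as much as any other. It had a level of 12.6 at Tut7 from 2 fragments and of 3.59 at Cnot6l from 1. With this weighting Tut4 over Tut7 was 0.283, Tut7 was 2.27, Cnot6l was 0.587 and Cnot6l over Cnot6 was 0.527, with no interval for these. Cnot6l was then not the lowest gene, nor was it without library 5-6 or with 1 kb or no flanks, where Zfp36l2 was lower, with the 1 Mb on each side as reference, where Btg4 was lower, or in libraries named 4, where Btg4, Zfp36l2, Pabpn1l and Zar1 had no fragment. Leaving out 1 library gave 1 to 3 intervals below 1, beside 6.68% to 7.14% of autosomal protein-coding genes. It kept 2 above, beside 27.1% to 29.4%, and moved the median from 0.766 to 0.930. The causes were not tested, beyond the smaller counts that fewer libraries or fragments give. The short genes rest on few fragments, and depth limits what can be said of Zfp36l2, Zar1 and Btg4.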
